A study of Mus musculus with 6 samples.

Results

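The 36 genes described here make the proteins of the unfolded protein response and the integrated stress response. They were chosen by symbol: 14 chaperones and folding factors of the endoplasmic reticulum (ER), 5 stress sensors and the transcription factors they act through, 6 genes of ER-associated degradation and 11 targets of the transcription factor ATF4. All 36 were in the deposited table of 24434 gene symbols, and all 36 passed the filter on low counts that left 16373 genes for testing. Polyadenylated RNA of whole mouse kidney was sequenced in 6 strand-specific libraries from mice on normal chow, with 3 of db/db genotype, the diabetic model, and 3 of db/m genotype, the control. The db allele disrupts the leptin receptor throughout the body, so db/db mice are obese and diabetic, while db/m mice carry 1 copy of it and stay lean. The sources used here give no age, sex or strain. They also do not say that the libraries are of different animals, and the p-values therefore speak of the spread among these 6 libraries, which may be technical.

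The unfolded protein response starts when unfolded protein builds up in the ER. Its sensors IRE1 (gene Ern1), ATF6 and PERK (gene Eif2ak3) then act through the transcription factors XBP1, cleaved ATF6 and ATF4, and the genes they switch on add chaperones, send misfolded protein to the proteasome and adjust amino acid supply. PERK shares its target, the translation factor eIF2, with kinases that sense amino acid shortage, haem shortage and viral RNA, so ATF4 and its targets can rise without ER stress, in what is called the integrated stress response. ATF4 itself is controlled largely at translation, and XBP1 and ATF6 by splicing and cleavage, none of which a gene count shows. In the kidney these pathways are best known from tubule cells and podocytes, which make or take up large amounts of protein.

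Promoter elements are shown because the chaperones and the ATF4 targets are known to be switched on through different ones. RefSeq promoter windows of 300 bases (GRCm38.p6, 250 bases before the start site and 50 after) were held for 32 of the 36 members and were searched on both strands. The ER stress response element, spelled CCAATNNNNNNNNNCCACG and read by ATF6 together with the factor NF-Y, was present in the windows of 7 of 12 chaperones, 2 of 5 degradation genes, 0 of 4 sensors and 0 of 11 ATF4 targets, and in 0.119% of all 32851 windows. The matches are given in the direction of the element with 6 bases on each side and its fixed letters in capitals, with Hsp90b1 holding a pair of them.
Calr: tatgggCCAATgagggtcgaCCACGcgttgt
Canx: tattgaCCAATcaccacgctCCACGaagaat
Creld2: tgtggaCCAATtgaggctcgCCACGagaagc
Dnajc3: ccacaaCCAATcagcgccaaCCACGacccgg
Hsp90b1: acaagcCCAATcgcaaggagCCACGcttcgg
Hsp90b1: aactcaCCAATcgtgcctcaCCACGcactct
Hspa5: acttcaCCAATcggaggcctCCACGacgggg
Pdia6: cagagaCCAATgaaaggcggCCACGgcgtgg
Derl3: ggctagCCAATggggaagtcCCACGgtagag
Syvn1: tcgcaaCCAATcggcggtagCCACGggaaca

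The shorter ERSE-II, spelled ATTGG, any 1 base and CCACG, was present for 1 chaperone and 1 degradation gene, and in 0.0365% of all windows. The unfolded protein response element bound by XBP1, TGACGTGG, was in 0 of the 32 members' windows and 0.676% of all windows, which says only that these letters are not in these windows.
Dnajb11: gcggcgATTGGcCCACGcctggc
Herpud1: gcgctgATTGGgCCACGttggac

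The CEBP-ATF response element, spelled TGATGNAA and bound by ATF4 with a C/EBP partner, was in the windows of 5 of 11 ATF4 targets, 1 of 5 degradation genes, 0 of 12 chaperones and 0 of 4 sensors, against 3.97% of all windows. Its 6 matches follow, again in the direction of the element. Herpud1 had both this element and ERSE-II, which do not overlap each other there.
Asns: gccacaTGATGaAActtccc
Atf3: acttggTGATGcAAgtgcga
Chac1: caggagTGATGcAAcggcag
Nupr1: cctgtcTGATGcAAtctggc
Trib3: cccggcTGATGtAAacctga
Herpud1: gcgggcTGATGcAAcccgcc

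Whole windows are printed for a pair of ATF4 targets that were higher in db/db kidneys, for an ATF4 target with the same element that was not, and for the main ER chaperone gene, with the element in capitals. The window of Chac1 is chr2:119350992-119351291 on the plus strand, that of Trib3 chr2:152344011-152344310 on the minus strand, that of Nupr1 chr7:126625421-126625720 on the minus strand and that of Hspa5 chr2:34771840-34772139 on the plus strand. Each is written from 5′ to 3′ in the gene's own direction. In Chac1, Trib3 and Nupr1 the element lies on the opposite strand and so reads as its reverse complement. A match is a description of the letters and not a measured binding site.
Chac1: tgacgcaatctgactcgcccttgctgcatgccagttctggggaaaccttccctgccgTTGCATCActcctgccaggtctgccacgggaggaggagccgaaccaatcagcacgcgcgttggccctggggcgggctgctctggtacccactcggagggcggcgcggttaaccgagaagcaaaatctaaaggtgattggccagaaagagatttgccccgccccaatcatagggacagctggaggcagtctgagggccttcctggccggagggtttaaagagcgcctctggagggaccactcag
Trib3: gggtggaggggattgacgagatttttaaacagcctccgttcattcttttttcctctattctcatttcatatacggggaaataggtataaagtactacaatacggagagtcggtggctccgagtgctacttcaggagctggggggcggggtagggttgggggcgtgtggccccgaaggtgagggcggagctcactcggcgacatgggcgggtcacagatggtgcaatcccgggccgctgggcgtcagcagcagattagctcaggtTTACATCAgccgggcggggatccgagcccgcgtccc
Nupr1: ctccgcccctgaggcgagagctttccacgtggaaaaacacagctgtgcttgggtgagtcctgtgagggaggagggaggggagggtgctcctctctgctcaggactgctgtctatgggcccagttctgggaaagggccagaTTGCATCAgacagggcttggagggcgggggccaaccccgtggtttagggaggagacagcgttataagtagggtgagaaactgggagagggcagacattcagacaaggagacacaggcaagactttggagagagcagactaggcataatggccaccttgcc
Hspa5: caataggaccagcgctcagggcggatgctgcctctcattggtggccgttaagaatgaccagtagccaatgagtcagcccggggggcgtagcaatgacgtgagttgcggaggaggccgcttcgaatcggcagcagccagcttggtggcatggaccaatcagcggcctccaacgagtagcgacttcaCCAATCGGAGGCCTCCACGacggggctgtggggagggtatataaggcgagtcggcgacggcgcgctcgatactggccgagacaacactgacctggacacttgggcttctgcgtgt

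Libraries held 25937756 to 35931140 counts in all. Values are CPM, the count scaled to a library of 1000000 counts after TMM, a factor that evens out library composition, and a count of 0 allows up to 0.0759 to 0.12 CPM at a limit of 3 counts. Such limits cover counting error only. Kidney markers were abundant, with the proximal tubule gene Slc34a1 at 6200 to 8180 CPM in db/db libraries and 4030 to 6420 CPM in db/m libraries, and the thick limb gene Umod at 1670 to 3230 CPM in db/db and 1640 to 2390 CPM in db/m libraries. Over their lists the median log2 fold change was 0.05 for 8 proximal tubule genes, with 1 called higher and 1 lower, and -0.32 for 4 thick limb genes, of which Kcnj1 was called lower in edgeR. It was -0.76 for 4 distal convoluted tubule genes and -0.3 for 5 collecting duct principal cell genes, with 3 and 2 called lower and 0 higher. Of 5 intercalated cell genes 1 was called higher and 1 lower, and of 5 podocyte genes 1 was called lower. All genes had 13.1% higher and 10.8% lower. The leptin receptor gene Lepr stood at 5.66, 2.54 and 5.15 CPM in db/db and at 2.94, 2.48 and 3.61 CPM in db/m libraries (edgeR adjusted p = 0.246), a gene total that need not show the altered splicing of the db allele. Within groups, db/m replicate 3 had the most RNA of immediate early genes, 1444 CPM summed over 10 genes, against 254 to 487 CPM in the db/db libraries and 369 to 451 CPM in the other db/m libraries. Adipocyte markers were highest in db/db replicate 3 and db/m replicate 3, at 140.3 and 67.79 CPM summed over 6 genes, against 5.31 CPM or less elsewhere. With total counts in place of TMM scaling, the median log2 fold change of all genes tested moved to -0.32 from -0.06, so changes are best read relative to that median.

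Of the 36 members, 7 rose in db/db kidneys and 0 fell, at an adjusted p below 0.05 in edgeR's quasi-likelihood test over all genes. That is 19.4% of the members called higher, beside a background of 13.1% of all genes higher, 10.8% lower and 24.0% in either direction. At an unadjusted p below 0.05, 15 members were higher and 1, Nupr1, was lower. DESeq2 called 14 members higher and 0 lower, beside 16.2% of all genes higher and 13.3% lower, and limma-voom 7 and 0, beside 13.5% and 10.6%. The members that rose were Dnajb11 among the chaperones, Edem1, Derl1 and Sel1l among the degradation genes, and Chac1, Trib3 and Sesn2 among the ATF4 targets. In all 7 each db/db library lay above every db/m library, which held for 14 members in this direction and 0 in the other, against 22.4% and 22.2% of all genes, or 44.6% in either direction.

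**Figure D1:**
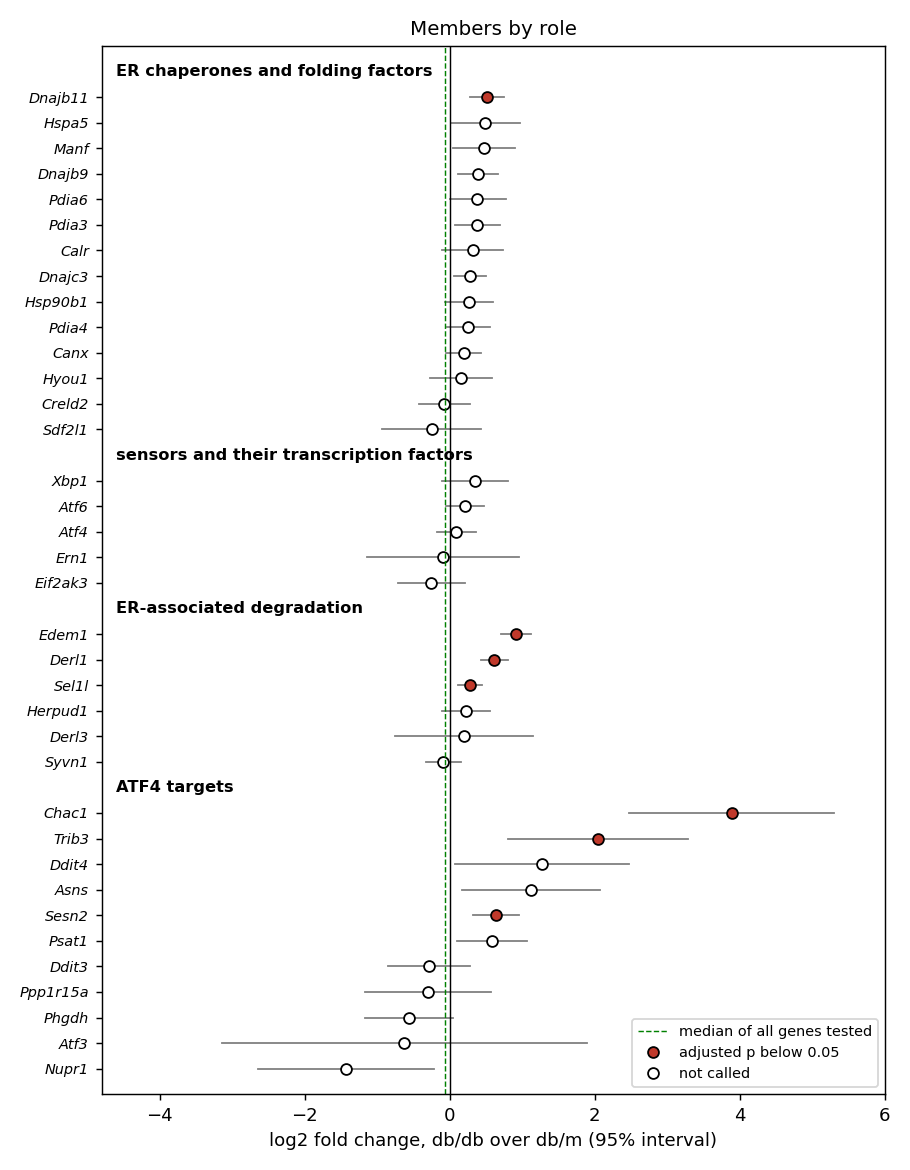
Log2 fold change of each member, db/db over db/m, with its 95% interval, grouped by role; filled points passed an adjusted p of 0.05 and the dashed line is the median of all genes tested (-0.06). Chaperones sit in a narrow band from -0.25 to 0.52, while ATF4 targets spread from -1.43 for Nupr1 to 3.89 for Chac1.

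Of the 14 chaperones 1 (7.14%) rose in db/db kidneys and 0 fell in edgeR, beside 13.1% and 10.8% of all genes. DESeq2 called 6 higher and 0 lower, beside 16.2% and 13.3% of all genes. At an unadjusted p below 0.05, edgeR had 6 higher and 0 lower. The median log2 fold change of the 14 chaperones was 0.30, which is 0.36 above the median of all genes, and 12 of 14 had the higher mean in db/db. Dnajb11, a DNAJ partner that brings clients to the chaperone BiP, was at 109.7, 107 and 97.57 CPM in db/db libraries and at 64.36, 76.54 and 78.74 CPM in db/m libraries. All db/db values were above all db/m values, with a log2 fold change of 0.52 (SE 0.10, edgeR adjusted p = 0.0117), and a call that total counts only did not keep (adjusted p = 0.116). In whole kidney RNA, more cells of a type that makes much of a transcript and more transcript per cell cannot be told apart.

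Hspa5, which encodes BiP, the central ER chaperone, was at 425.1, 306.7 and 347.1 CPM in db/db and at 183.4, 287.1 and 296.7 CPM in db/m libraries. The groups did not overlap, but db/db replicate 2 and db/m replicate 3 lay close together, and the log2 fold change of 0.49 (SE 0.20) did not pass (edgeR adjusted p = 0.12; DESeq2 adjusted p = 0.0438). Hsp90b1, the ER form of HSP90, averaged 299.6 ± 28.98 CPM in db/db and 248.3 ± 42.44 CPM in db/m kidneys (SD, n = 3 each). Hyou1, a partner of BiP that recharges it with ATP, averaged 74.53 ± 11.63 CPM in db/db and 66.92 ± 14.51 CPM in db/m kidneys. Manf, a secreted survival factor that binds BiP, was at 95.36, 75.09 and 72.23 CPM in db/db against 43.68, 67.68 and 63.28 CPM in db/m libraries, again without overlap and without passing edgeR's test (log2 fold change 0.47, SE 0.18, adjusted p = 0.0998).

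Other BiP partners gave a similar picture. Dnajb9, a DNAJ partner that helps BiP hold the IRE1 sensor inactive, was at 56.15, 41.56 and 52.52 CPM in db/db and 37.91, 37.92 and 39.03 CPM in db/m libraries (log2 fold change 0.39, SE 0.12, edgeR adjusted p = 0.053). The db/m libraries were nearly equal for this gene, and db/db replicate 2 lay closest to them; without that library Dnajb9 passed at adjusted p = 0.0159, and so did Dnajc3, a luminal DNAJ protein also known as an inhibitor of PERK, at adjusted p = 0.0406. Sdf2l1 and Creld2, small luminal proteins induced by ER stress, had the lowest log2 fold changes of the chaperones, -0.25 (SE 0.29) and -0.08 (SE 0.15), and overlapping groups. In the lectin and disulphide branch, the lectins Calr and Canx and the disulphide isomerases Pdia3, Pdia4 and Pdia6 had log2 fold changes of 0.19 to 0.38. Of these 5 only Pdia3, the isomerase that works with both lectins, had groups that did not overlap, with 382.2, 325 and 361.2 CPM in db/db and 224.1, 293.5 and 302.8 CPM in db/m libraries (log2 fold change 0.38, SE 0.13, edgeR adjusted p = 0.0755).

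The chaperones moved together across libraries. Within the db/m group, replicate 1 had the lowest value for 14 of 14, and within the db/db group, replicate 1 had the highest for 14 of 14. Summed over the 14 genes, db/db libraries had 3057, 2574 and 2637 CPM and db/m libraries 1763, 2383 and 2450 CPM, so the lowest sum was that of db/m replicate 1 and the highest that of db/db replicate 1. Without db/m replicate 1 the median log2 fold change of the chaperones was 0.21 and Dnajb11 was again the only chaperone called, and without db/db replicate 1 the median was 0.24. Plasma cells, which secrete antibody, are rich in these chaperones. Of 8 listed plasma cell markers 4 were in the table, and these summed to 3.93 to 6.46 CPM in db/db and 13.0 to 56.0 CPM in db/m libraries, with Tnfrsf17 at 0 in every db/db library and at 0 to 0.109 CPM in db/m libraries. Jchain, the antibody joining chain, ranged over 1.52 to 2.81 CPM in db/db and 8.78 to 48.9 CPM in db/m libraries. The 8 proximal tubule markers summed to 16400 to 18800 CPM in db/db and 11600 to 14500 CPM in db/m libraries, but their median log2 fold change was 0.05, with Slc27a2 called higher and Slc5a12 lower, and Slc27a2 and Slc34a1 made up most of the difference in the sum. The part of either cell type in the chaperone levels was not tested.

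**Figure D2:**
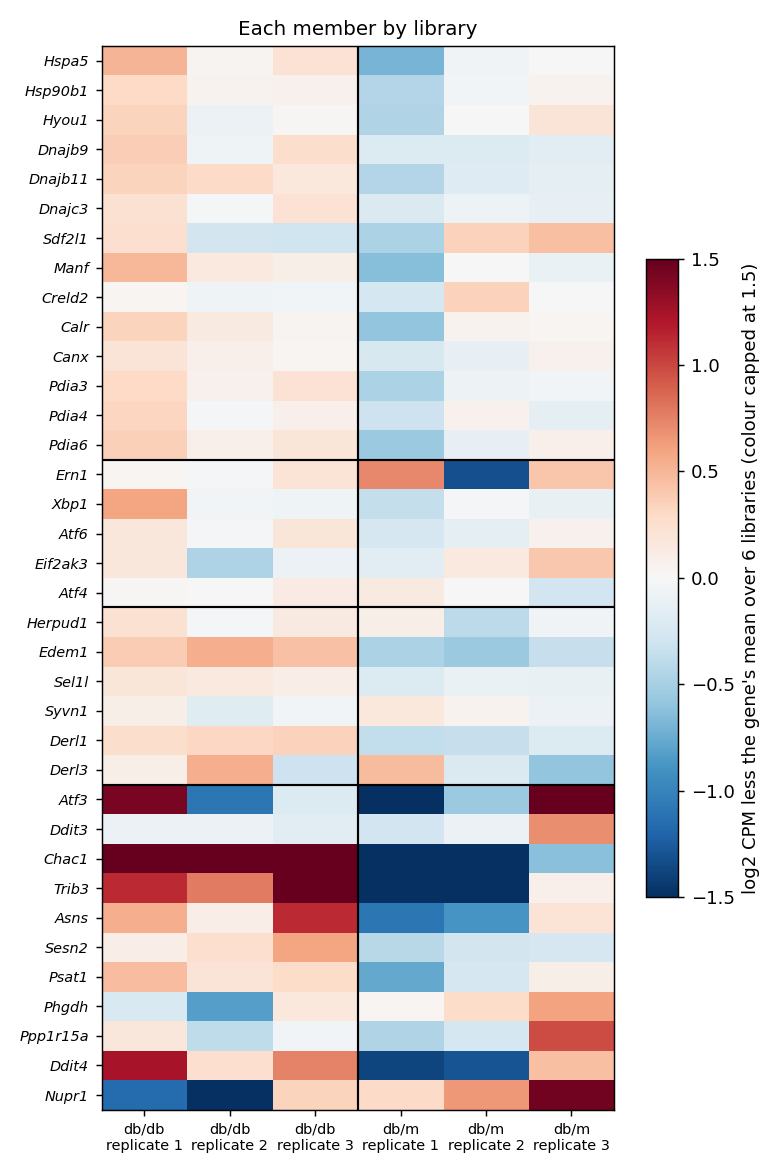
Log2 CPM of each member in each library, less the gene's mean over the 6 libraries (colour capped at 1.5); black lines divide chaperones, sensors, degradation genes and ATF4 targets, and db/db from db/m. The lowest db/m values of the chaperones are in db/m replicate 1, and Chac1 and Trib3 are higher in all db/db libraries than in any db/m library.

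None of the 5 sensors and their transcription factors passed the test in either direction (0 by edgeR, DESeq2 and limma-voom, and 0 at an unadjusted p below 0.05), and their median log2 fold change was 0.09. Xbp1 averaged 128.8 ± 35.5 CPM in db/db and 100.9 ± 11.82 CPM in db/m kidneys (SD, n = 3 each), with a high value of 169.7 CPM in db/db replicate 1. For Atf6 the log2 fold change was 0.21 (SE 0.11), and for Eif2ak3, the gene for PERK, it was -0.25 (SE 0.20). Atf4 transcript was at 109.9, 108.9 and 118.3 CPM in db/db against 119.5, 108.5 and 89.23 CPM in db/m libraries, an overlap with a log2 fold change of 0.09 (SE 0.12, 95% interval -0.18 to 0.36). Ern1 was the most variable of these genes, at 12.84, 12.32 and 14.49 CPM in db/db and 20.72, 5.04 and 16.75 CPM in db/m libraries. Its db/m values lay both above and below all db/db values, so its log2 fold change of -0.10 carried an SE of 0.44.

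Degradation genes were divided, with 3 of 6 (50%) higher and 0 lower in edgeR, beside 13.1% and 10.8% of all genes. DESeq2 also called 3 higher and 0 lower, beside 16.2% and 13.3% of all genes. At an unadjusted p below 0.05, edgeR had 3 higher and 0 lower. Edem1, a lectin that picks mannose-trimmed glycoproteins for degradation, was at 91.11, 101.9 and 94.57 CPM in db/db and 50.23, 47.51 and 54.71 CPM in db/m libraries. The groups were far apart relative to their spread, with a log2 fold change of 0.92 (SE 0.09, edgeR adjusted p = 0.000907), or 1.89-fold. Derl1, which encodes a derlin of the retrotranslocation channel, was at 151.9, 156 and 160.7 CPM in db/db libraries against 97.29, 99.4 and 109.1 CPM in db/m libraries (log2 fold change 0.62, SE 0.08, edgeR adjusted p = 0.00242). Both Edem1 and Derl1 passed in each of 15 alternative fits.

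Sel1l, the adaptor that holds the ubiquitin ligase complex together, was at 77.06, 75.24 and 72.93 CPM in db/db and 59.2, 63.38 and 62.79 CPM in db/m libraries. These groups did not overlap, but the difference was small (log2 fold change 0.28, SE 0.07, edgeR adjusted p = 0.0298) and passed in 1 of 6 fits that leave out a library, the one without db/m replicate 3. With total counts only the log2 fold change of Sel1l was 0.02. Syvn1, the ubiquitin ligase itself, averaged 46.67 ± 4.53 CPM in db/db and 49.63 ± 4.21 CPM in db/m kidneys (SD, n = 3 each), with overlapping values. Herpud1, a membrane protein of the same complex, had overlapping groups, and its log2 fold change was 0.22 (SE 0.14). Derl3, a derlin of secretory cells, was near the lower end of detection at 0.45 to 0.99 CPM over all libraries. Its log2 fold change was 0.20 (95% interval -0.75 to 1.15), so a small difference could not be detected at that depth.

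**Figure D3:**
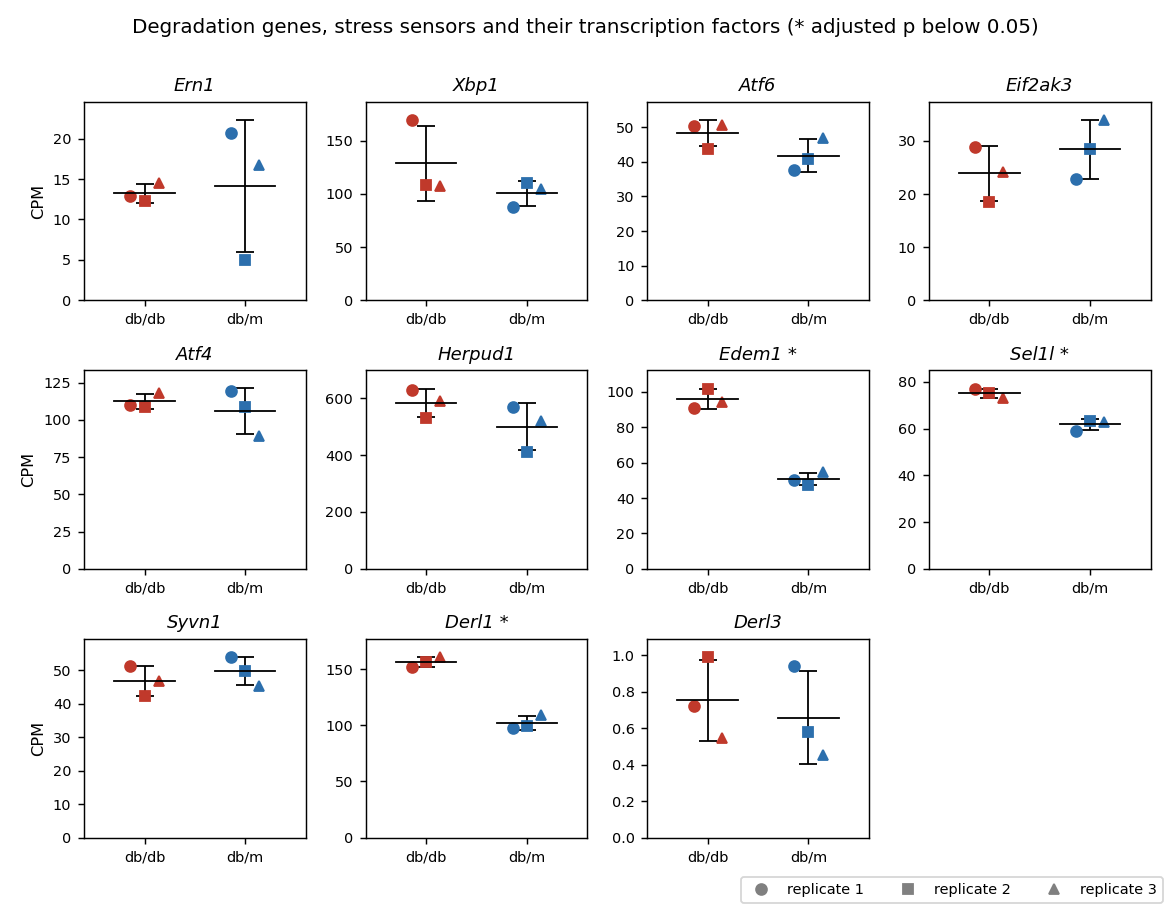
CPM of the 5 sensors and transcription factors and the 6 degradation genes in each library, with mean and SD over 3 libraries; an asterisk marks an adjusted p below 0.05. Edem1 and Derl1 separate cleanly by group, while Ern1 is spread over 5.04 to 20.72 CPM within db/m.

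Among ATF4 targets, 3 of 11 (27.3%) rose in db/db kidneys and 0 fell, beside 13.1% and 10.8% of all genes. DESeq2 called 5 higher and 0 lower, beside 16.2% and 13.3% of all genes. Of the 11 targets, 6 had the higher and 5 the lower mean in db/db. Chac1 encodes an enzyme that breaks down glutathione. It was at 13.45, 11.61 and 16.28 CPM in db/db and at 0.291, 0.532 and 1.964 CPM in db/m libraries, which are 335, 293 and 446 counts against 8, 21 and 61. Every db/db library was far above every db/m library, with a log2 fold change of 3.89 (SE 0.60, edgeR adjusted p = 0.00506), or 14.8-fold. Leaving out db/m replicate 3, the highest of its group, raised the log2 fold change to 5.02, and Chac1 passed in all 15 alternatives (adjusted p at most 0.0222). Its CPM in db/m replicate 1 was under the filter's minimum, so it entered the test through the other libraries.

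Trib3, a pseudokinase that binds ATF4 and AKT, was at 4.98, 3.92 and 6.68 CPM in db/db and 0.727, 0.633 and 2.415 CPM in db/m libraries. All db/db libraries were again above all db/m libraries, and db/m replicate 3 was again the highest of its group (log2 fold change 2.05, SE 0.53, edgeR adjusted p = 0.0308). Without db/m replicate 3 the log2 fold change was 2.94, while without any other single library Trib3 did not pass (adjusted p 0.0595 to 0.0963). Sesn2, a sestrin that senses leucine and restrains the growth kinase mTORC1, was at 39.9, 44.06 and 55.88 CPM in db/db against 27.77, 30.65 and 31.3 CPM in db/m libraries, without overlap (log2 fold change 0.64, SE 0.14, edgeR adjusted p = 0.0155). Sesn2 was not called under total counts only (adjusted p = 0.0742) or without both replicate 3 libraries (adjusted p = 0.0609).

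The other ATF4 targets with the higher mean in db/db were Asns, Psat1 and Ddit4. Asns, which makes asparagine, was at 7.51, 5.55 and 11.21 CPM in db/db and 2.44, 2.78 and 5.96 CPM in db/m libraries, where db/m replicate 3 overlapped the db/db range. Its log2 fold change of 1.12 (SE 0.41) had an edgeR adjusted p of 0.0847, a DESeq2 adjusted p of 0.0202 and, without db/m replicate 3, an adjusted p of 0.0201. Ddit4, another brake on mTORC1, was at 190.5, 96.21 and 135.3 CPM in db/db and 31.18, 33.13 and 110.7 CPM in db/m libraries. Here too db/m replicate 3 lay within the db/db range; the log2 fold change was 1.27 (SE 0.51, edgeR adjusted p = 0.113), and 2.14 with adjusted p = 0.00547 without that library. Psat1, the transaminase of serine synthesis, was at 54.51, 45.13 and 48.11 CPM in db/db against 23.22, 33.28 and 42.12 CPM in db/m libraries (log2 fold change 0.58, SE 0.20, edgeR adjusted p = 0.077; 0.81 with adjusted p = 0.0225 without db/m replicate 3), whereas Phgdh, which catalyses the step before it, averaged 12.05 ± 3.92 CPM in db/db and 17.85 ± 3.63 CPM in db/m kidneys (SD, n = 3 each; adjusted p = 0.15).

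Ddit3, Ppp1r15a and Atf3 passed in neither direction in edgeR. Ddit3, which encodes CHOP, was at 28.3, 28.37 and 26.9 CPM in db/db and at 24.68, 28.25 and 48.79 CPM in db/m libraries. The db/db values sat within the db/m range, with a log2 fold change of -0.28 (SE 0.24), and 0.08 without db/m replicate 3. Ppp1r15a, the phosphatase subunit that reverses eIF2 phosphorylation, was at 30.3, 20.68 and 26.28 CPM in db/db against 19.81, 22.45 and 53.17 CPM in db/m libraries, with the high value in db/m replicate 3. Atf3, a transcription factor that is also an immediate early gene, was at 16.09, 2.81 and 5.18 CPM in db/db against 1.53, 4.08 and 31.53 CPM in db/m libraries, and its log2 fold change turned to 1.52 from -0.62 without db/m replicate 3, passing in neither fit (edgeR adjusted p = 0.698 with it and 0.215 without it).

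Nupr1, a small nuclear protein induced by many stresses, was the member with the lowest log2 fold change. It was at 9.59, 7.25 and 26.97 CPM in db/db and 26.24, 33.61 and 58.54 CPM in db/m libraries, so the groups touched only through db/db replicate 3 and db/m replicate 1. The log2 fold change was -1.43 (SE 0.52, edgeR adjusted p = 0.0844), and without db/db replicate 3 it was -2.22 (adjusted p = 0.018). Both replicate 3 libraries, the highest of their groups for Nupr1, also had the most adipocyte RNA, as given above, and its part was not tested. Chac1 and Nupr1 have the same 8-base element in their promoter windows, shown above, and stood at opposite ends of the 11 targets.

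The ATF4 targets also shared an order among the db/m libraries. Within db/m, replicate 3 had the highest value for 11 of 11 ATF4 targets and replicate 1 the lowest for 10 of 11. Summed over the 11 genes, db/db libraries had 407.3, 273.7 and 374.7 CPM and db/m libraries 172.4, 206.7 and 408.2 CPM, so the sums overlapped. The immediate early genes were also highest in db/m replicate 3, as given above, with Fos at 0.872 to 3.29 CPM in db/db and 6.25 to 33.1 CPM in db/m libraries, and their part in the ATF4 targets was not tested. Without db/m replicate 3, 6 of 11 ATF4 targets were higher and 0 lower in edgeR, with 0 lower at an unadjusted p below 0.05. The members called higher then came to 10 of 36, beside 11.7% of all genes higher and 9.11% lower. Each of the other fits without 1 library called 2 of the 11 targets higher, beside 8.15% to 12% of all genes. The fit without db/db replicate 3 also called 1 target, Nupr1, lower.

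**Figure D4:**
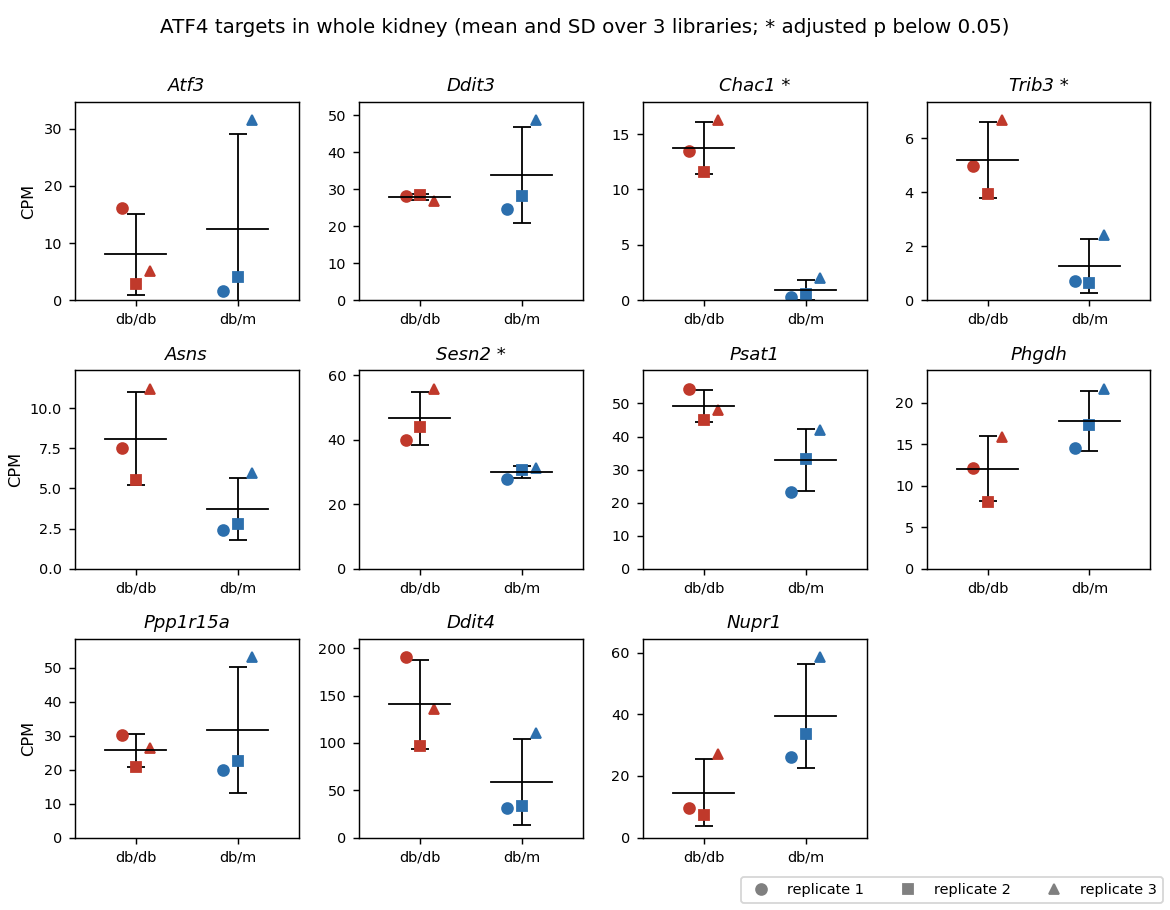
CPM of the 11 ATF4 targets in each library, with mean and SD over 3 libraries; an asterisk marks an adjusted p below 0.05. Chac1, Trib3 and Sesn2 do not overlap between groups, and db/m replicate 3 (triangle) is the highest db/m value in every panel.

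Beyond the members, 11 further lists of 173 genes covered the neighbouring steps, with 169 tested, of which 58 were higher, Fgf21 among them, and 4 lower. With TMM scaling and all 6 libraries, edgeR called 13.1% of all genes higher and 10.8% lower. All db/db libraries lay above all db/m libraries for 22.4% of all genes. With 1 library left out, 8.15% to 12% of all genes were called higher and 5.1% to 9.11% lower. Of 30 genes for translocation, glycosylation and export, 17 were higher and 1 lower, or 56.7% and 3.33%. Their median log2 fold change was 0.34, and 25 of 30 (83.3%) had db/db libraries above all db/m libraries. Sec11a, a catalytic subunit of the signal peptidase, was at 148.9, 152.2 and 138.6 CPM in db/db and 73.2, 72.29 and 82.86 CPM in db/m libraries (log2 fold change 0.94, SE 0.09, edgeR adjusted p = 0.000802). Sec61b, a subunit of the protein channel, Ssr2, of the channel's partner complex, and Spcs1, of the signal peptidase, were higher by 0.71, 0.64 and 0.58 on the log2 scale. The 1 gene called lower was Spcs3 at -0.25, which passed in 0 of 6 fits that leave out a library. Without db/db replicate 1, 2 or 3, the genes called higher came to 9, 11 and 9 of 30, beside 8.7%, 8.67% and 8.15% of all genes. In those fits the list median was 0.32, 0.35 and 0.34, and 20, 24 and 21 genes were higher at an unadjusted p below 0.05. With total counts only, 5 of the 30 were called higher and 3 lower, beside 6.55% and 29.8% of all genes. The list median was then 0.08, which is 0.40 above the median of all genes, as it was with TMM scaling.

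Other folding enzymes and degradation genes were also called in 1 direction. Of 25 further folding enzymes 9 were higher and 0 lower (DESeq2 12 and 0, with 0 lower at an unadjusted p below 0.05), among them Sil1, a nucleotide exchange factor for BiP, at 0.68 (SE 0.08, edgeR adjusted p = 0.00188), and the thioredoxin-like Erp44 and Erp29 at 0.64 and 0.66. Of 21 further degradation genes 9 were higher and 0 lower (DESeq2 11 and 0, with 0 lower at an unadjusted p below 0.05), including Vcp, the ATPase that pulls proteins out of the membrane, at 0.55 (SE 0.09, edgeR adjusted p = 0.00627), and its cofactor Nploc4 at 0.55. With total counts only, 4 of the folding enzymes were higher and 1 lower and 1 of the degradation genes was higher, beside 6.55% of all genes higher and 29.8% lower. Vcp then had an edgeR adjusted p of 0.0564. The degradation genes called higher came to 5 without db/db replicate 2, db/db replicate 3, db/m replicate 2 or db/m replicate 3. In those fits 8.67%, 8.15%, 8.36% and 11.7% of all genes were called higher. Among 11 tested further transducers, Tmbim6, an ER membrane protein that limits IRE1 activity, was higher at 3318, 3255 and 3019 CPM in db/db against 2208, 2211 and 2319 CPM in db/m libraries, while Map3k5, a kinase activated downstream of IRE1, was lower by a log2 fold change of -0.51 (SE 0.09, edgeR adjusted p = 0.0076; 0.062 without both replicate 3 libraries). Of the 11, 3 were higher and 1 lower, with 1 higher without db/db replicate 1 or db/m replicate 2 and 0 higher and 3 lower in edgeR under total counts only (1 and 5 at an unadjusted p below 0.05; Tmbim6 at adjusted p = 0.0683), where 6.55% of all genes were higher and 29.8% lower.

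Further ATF4 targets were called in both directions. Fgf21, a hormone gene induced by ATF4 in several tissues, had 15, 22 and 42 counts in db/db libraries and 0 in all 3 db/m libraries. Against the limit of 3 counts over the db/m group it was at least 33.3-fold higher in db/db. It passed the filter on low counts only through the db/db libraries, so it had to differ and its values are a description with no test. Slc6a9, a glycine transporter, was at 61.09, 54.64 and 61.28 CPM in db/db and 19.73, 21.49 and 23.54 CPM in db/m libraries (log2 fold change 1.45, SE 0.10, edgeR adjusted p = 0.000245), and the mitochondrial folate enzyme Aldh1l2 was at 6.46, 6.58 and 5.11 CPM in db/db against 1.6, 1.29 and 2 CPM in db/m libraries (log2 fold change 1.89, SE 0.24, edgeR adjusted p = 0.00236). Both had db/db libraries well above all db/m libraries and passed in all 15 alternatives.

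The medians of these lists lay near or below 0, apart from the genes of tRNA charging. Their counts stand beside 13.1% of all genes higher and 10.8% lower in edgeR, and 16.2% and 13.3% in DESeq2. Of 8 tested amino acid transporters 2 were higher and 0 lower in edgeR (2 lower at an unadjusted p below 0.05, 1 in DESeq2), with a median of -0.24, and 1 was higher without any 1 of the db/db libraries or db/m replicate 2. Of 9 tested genes of amino acid synthesis and one-carbon metabolism 1 was higher and 0 lower (DESeq2 2 and 0, with 0 lower at an unadjusted p below 0.05), with a median of -0.07. Among 14 regulators and secreted factors, leaving Fgf21 aside, 1 was higher and 1 lower; the median with Fgf21 was -0.04 (also -0.04 with Fgf21 placed at its bound). Atf5, a transcription factor translated under the same control as ATF4, was at 0.76 (SE 0.18, edgeR adjusted p = 0.0204). It passed in 11 of 15 alternatives (adjusted p at most 0.117). The lost calls included those without db/db replicate 2 or db/db replicate 3, at edgeR adjusted p = 0.0535 and 0.0711, and under total counts only, at 0.0734. Pmaip1, which encodes the cell death protein NOXA, was at 6.9, 4.95 and 5 CPM in db/db against 14.72, 15.14 and 22.83 CPM in db/m libraries, lower without overlap (log2 fold change -1.64, SE 0.23, edgeR adjusted p = 0.00328). Of 12 tested genes of tRNA charging 5 were higher and 0 lower (DESeq2 6 and 0, with 0 lower at an unadjusted p below 0.05), by 0.27 to 0.49 on the log2 scale. With total counts only, 0 of those 12 were higher by edgeR (0 also at an unadjusted p below 0.05) and 1 was lower, beside 6.55% and 29.8% of all genes. None of the 12 was called without db/db replicate 1, db/db replicate 3 or db/m replicate 2, beside 8.7%, 8.15% and 8.36% of all genes higher. In those fits 6, 6 and 7 were higher at an unadjusted p below 0.05. Without db/db replicate 2, db/m replicate 1 or db/m replicate 3, 3, 1 and 2 were called higher, beside 8.67%, 12% and 11.7% of all genes. The fit without db/m replicate 1 also called 1 lower, beside 9.02% of all genes.

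Of 14 tested genes that set or sense eIF2 phosphorylation, 3 were higher and 1 lower. Leaving out any 1 library other than db/m replicate 3 left 1 higher, and leaving out db/m replicate 3 left 2. Over these fits 8.15% to 12% of all genes were called higher, against 13.1% with all 6 libraries. Dele1, which relays mitochondrial stress to an eIF2 kinase, was at 64.58, 70.69 and 67.53 CPM in db/db and 50.55, 50.8 and 44.73 CPM in db/m libraries (log2 fold change 0.47, SE 0.09, edgeR adjusted p = 0.00867). Eif2ak4, which encodes the amino acid sensing kinase GCN2, was at 7.91, 9.11 and 9.89 CPM in db/db and 13.34, 14 and 12.04 CPM in db/m libraries. It was lower in every db/db library (log2 fold change -0.55, SE 0.14, edgeR adjusted p = 0.0278), and passed in 1 of 6 fits that leave out a library, the one without db/m replicate 3. Under total counts only, Dele1 had an adjusted p of 0.0679.

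**Figure D5:**
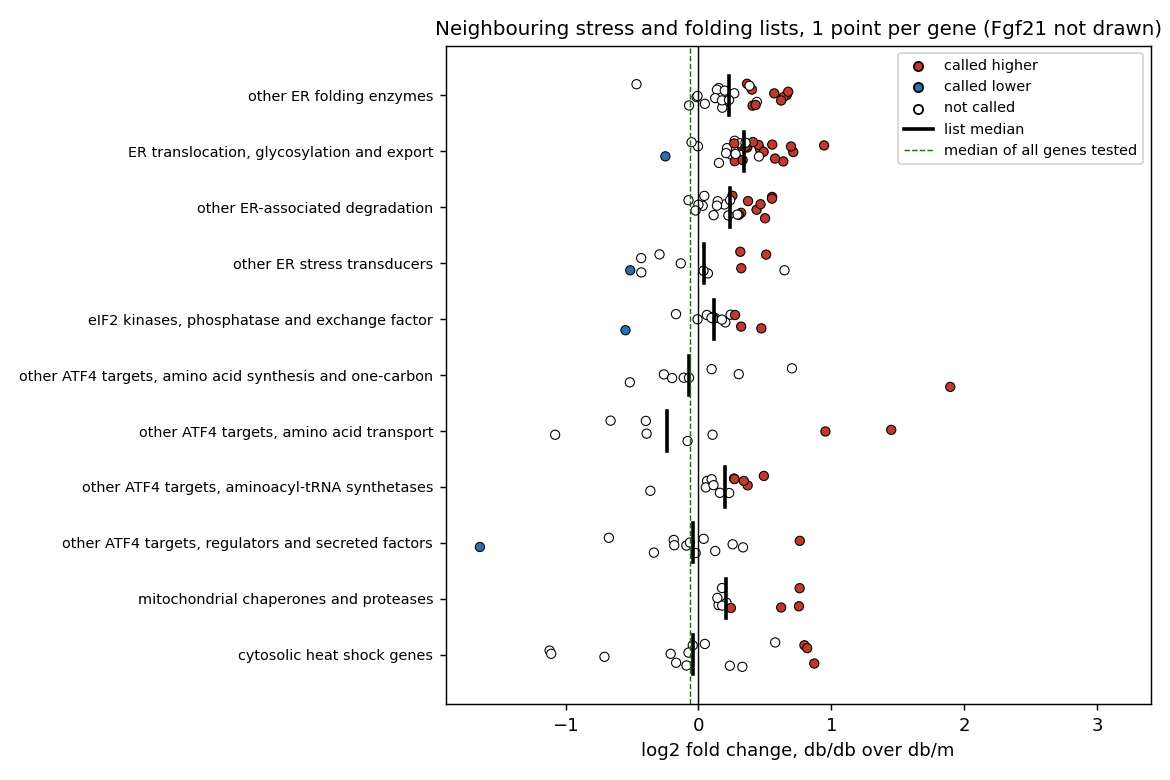
Log2 fold change, db/db over db/m, of each tested gene in 11 further lists of folding, degradation and stress genes (vertical jitter only separates points, and Fgf21 is not drawn); black bars are list medians and the dashed line is the median of all genes tested (-0.06). The ER import and export list has its median at 0.34 with 17 filled points on the higher side, whereas the ATF4 target lists spread to both sides.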

How the data were processed

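The authors deposited 1 table of raw counts, whole numbers for each gene symbol, with a column per library; columns were assigned by name. The tools named, per the submitters' processing notes, are HISAT2, StringTie, SAMtools, fastp, FastQC and DESeq2, without version or role. The sources used here give neither the genome build and annotation nor how reads were counted. Over the 6 libraries a value of 2 was more frequent (4164) than a value of 1 (1318).

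Genes were filtered with filterByExpr, scaled with TMM and tested with edgeR 4.0.16 (R 4.3.3) in its quasi-likelihood test with no covariates and Benjamini-Hochberg adjustment over all 16373 genes tested; the procedure was tested on simulated data. An adjusted p below 0.05 is a call. The SE is the log2 fold change divided by the square root of F, and the 95% interval uses the fit's degrees of freedom. Members of a list are described by counts and medians, with no test of the list. Libraries of a group differed far beyond counting noise (17.2 to 64.8 in chi-square over its degrees of freedom). Of 327 listed symbols 317 were in the table, 10 of them under an older symbol given by RefSeq.

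All 36 members are described, and from each further list the called genes with the smallest p, up to 4 in the direction with more calls and up to 2 in the other, of which some are left to counts. The members and lists were chosen with earlier results of these data known. Alternatives were other scalings, DESeq2 1.42.0, limma-voom (limma 3.58.1), 2 other filters, the replicate number as a block, each library left out, and both replicate 3 libraries left out; running them on the further lists was added after the data were seen. Promoter windows came from RefSeq, GRCm38.p6.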

Additional observations from a re-analysis of the deposited data

How the results depend on the processing

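Of the 7 members called, Chac1, Edem1 and Derl1 passed in all 15 alternatives, and 5 passed without each single library, while Sel1l and Trib3 passed in 1 of 6 such fits each, with fewer libraries. In 539 member values under the alternatives, 17 calls were lost, 21 gained and 23 signs turned, none of a called member, and the causes were not tested. Under total counts only, edgeR called 1072 genes higher and 4883 lower, 4 members were higher (without Dnajb11, Sel1l and Sesn2) and 2 lower (Syvn1 and Nupr1), and the chaperone median was 0.037. The DESeq2 Wald test called 14 members higher. Leaving out both replicate 3 libraries gave 1052 genes higher and 660 lower, and 1 member, Nupr1, lower. Leaving out single libraries gave 1374 to 2011 genes higher and 851 to 1523 lower, with the lowest counts without db/db replicate 3 and without db/m replicate 2; 5 to 10 members were higher and 0 to 1 lower, the chaperone median was 0.21 to 0.40 and that of the ATF4 targets 0.40 to 0.81.

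Signs turned with total counts only for Hyou1 (-0.11), Canx (-0.069), Pdia4 (-0.005), Atf6 (-0.055), Atf4 (-0.17), Herpud1 (-0.035), Derl3 (-0.056) and, outside the members, Afg3l2 (-0.016), and with limma-voom for Ern1 (0.24) and Atf3 (0.056). Without both replicate 3 libraries they turned for Sdf2l1 (0.022), Atf4 (-0.06), Atf3 (1.74), Ddit3 (0.10) and Ppp1r15a (0.27). Over the fits without 1 library, Ern1 ranged over -0.50 to 0.30, Creld2 -0.19 to 0.11, Atf4 -0.012 to 0.20, Derl3 -0.042 to 0.55, Atf3 -1.62 to 1.52, Ddit3 -0.45 to 0.083 and Ppp1r15a -0.54 to 0.30. Derl3 could not be fitted under the stricter filter, nor Fgf21.

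Deviations of same-numbered libraries correlated at -0.15, 0.057 and 0.143, and those of differently numbered libraries at -0.303 to 0.239. With so few libraries a group, these values cannot show whether same-numbered libraries were handled together. With the replicate block, 1313 genes were higher and 973 lower, 7 members were higher and 1, Nupr1, lower; Asns gained and Sel1l lost its call, and Ern1 stood at 0.11. For Chac1 the ratio of summed counts, 15.1, had a counting interval of 12.2 to 18.9, while the log2 fold change ranged over 3.50 to 5.02 without single libraries. Depth limits Derl3, at 14 to 26 counts a library.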

Other observations

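Some chaperones of other compartments were also called. The counts that follow stand beside 13.1% of all genes called higher and 10.8% lower in edgeR, and 16.2% and 13.3% in DESeq2. For 22.4% of all genes every db/db library was above every db/m library, and for 22.2% the reverse held. Of 10 listed mitochondrial chaperones and proteases, 4 were higher in db/db kidneys and 0 lower (DESeq2 also 4 and 0, with 0 lower at an unadjusted p below 0.05), with a median log2 fold change of 0.21 and db/db above all db/m libraries for 8 of 10. Hspd1 and Hspe1, the partner chaperonins of the matrix, which lie next to each other in the genome and share a promoter, were at 602.7, 581 and 581 CPM in db/db against 373.4, 316.4 and 355.2 CPM in db/m libraries, and at 308, 324.4 and 293.6 CPM in db/db against 201, 169.6 and 176 CPM in db/m libraries. Their log2 fold changes were 0.76 (SE 0.09) and 0.76 (SE 0.09), with edgeR adjusted p = 0.00202 and 0.00218. Trap1, the mitochondrial HSP90, was higher by 0.62 (SE 0.08, edgeR adjusted p = 0.00226). These 3 passed in all 15 alternatives. The proximal tubule markers, whose cells are rich in mitochondria, had a median log2 fold change of 0.05. Their sum was 16400 to 18800 CPM in db/db and 11600 to 14500 CPM in db/m libraries, mostly through Slc27a2 and Slc34a1, as given above. The part of these cells in the mitochondrial genes was not tested.

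Cytosolic heat shock genes were divided. Beside their counts, all genes had 13.1% higher and 10.8% lower in edgeR, and 16.2% and 13.3% in DESeq2. Of 15 listed, 3 were higher and 0 lower in edgeR (DESeq2 5 and 0, with 0 lower at an unadjusted p below 0.05), with a median of -0.04. The constitutive chaperone Hspa8 was at 1877, 1943 and 1883 CPM in db/db and 976, 1137 and 1169 CPM in db/m libraries (log2 fold change 0.80, SE 0.10, edgeR adjusted p = 0.00243). Hsp90ab1, the constitutive cytosolic HSP90, and Dnaja1, a DNAJ partner of Hspa8, were higher by 0.87 and 0.82. At the other end of the list were Hspa1b, Cryab and Hspa1a, at -1.12 (SE 0.51), -1.11 (SE 0.78) and -0.71 (SE 0.41). Their groups overlapped and they were not called (edgeR adjusted p = 0.15, 0.331 and 0.241). Without db/m replicate 3, the library with the most immediate early RNA, the list median was 0.39 and 5 were higher, beside 11.7% of all genes.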
